A study of Mus musculus with 9 samples.

Results

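The comparison described here is between BV2 cells given silica-coated magnetic particles at 100 µg/ml and BV2 cells given the same particles at 10 µg/ml. It compares 6 of the 9 libraries of the series, 3 at each dose, and they were chosen by the dose in their labels. The control libraries also entered the fit, where they add to the estimate of the spread. The test covered every gene whose FPKM averaged 1 or more in the whole series, 11161 of the 40993 genes in the deposited table. FPKM is the number of sequenced fragments per kilobase of transcript, scaled to the mapped fragments of the library, so length and depth are already divided out.

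BV2 is an immortalized mouse microglial line, here the only line used. The particles, MNPs@SiO2(RITC), have a cobalt ferrite core and a silica shell that holds the dye rhodamine B isothiocyanate. The groups were non-treated control cells, cells treated at 10 µg/ml (0.01 µg/µl in the labels) and cells treated at 100 µg/ml (0.1 µg/µl in the labels), with 12 h of treatment in both treated groups and no genotype named for any group. The labels do not say that the 3 libraries of a group came from separate cultures, so the p-values measure only the spread between these libraries, which may be technical.

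Microglia are the resident phagocytes of the brain. They take up particles by receptors for complement, sugars and charged surfaces and pass them to lysosomes, where cathepsins and other hydrolases act. Several programmes report on the state of such cells, among them the integrated stress response, in which the transcription factor ATF4 drives genes of amino acid supply, the unfolded protein response of the endoplasmic reticulum, sterol synthesis under the SREBP factors, NF-kB signaling and the interferon response.

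The libraries expressed the lineage markers of the labelled cell type. Of 14 markers of microglia and macrophages, 13 were matched to the table and all 13 reached 1 FPKM, and their sum was 1966 to 2097 FPKM at 10 µg/ml and 1825 to 2002 FPKM at 100 µg/ml, ranges that overlap. Markers of neurons summed to at most 0.195 FPKM in any library and those of fibroblasts to at most 0.134 FPKM, and 1 of 8 astrocyte, 1 of 7 oligodendrocyte and 2 of 6 endothelial markers reached 1 FPKM. At 10 and at 100 µg/ml the astrocyte markers summed to 20.4 to 22.8 and 21.6 to 26.5 FPKM, the oligodendrocyte markers to 11.7 to 13.2 and 11.5 to 12.0 FPKM and the endothelial markers to 70.5 to 76.4 and 65.4 to 81.2 FPKM, and Aqp4, Mog, Mobp, Sox10 and Cldn5 were at 0. Of 25 genes of resting brain microglia 14 reached 1 FPKM and 11 did not, P2ry12, Sall1, Siglech and Cx3cr1 among the latter. The estimated depth was 13 to 16.4 M (mega) fragments per library. The library of replicate 1 at 100 µg/ml stood apart from the others, at -33.1 on the first principal component (19.27% of the variance) against -6.55 to 10.1 for the other 8 libraries, so the number of calls, and that of each gene list where it changed, is also given without it.

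At 100 against 10 µg/ml, 24 genes rose (0.215% of the genes tested) and 71 genes fell (0.636%) at an adjusted p under 0.05. Genes of amino acid supply, immune signaling and lysosomal proteolysis were among those that fell, and genes of sterol synthesis and of the interferon response were among those that rose. The test was limma with its trend option on log2(FPKM + 1), with all 3 groups in one fit, a shared spread and Benjamini-Hochberg adjustment over all genes tested. Differences on this scale understate those of genes with low FPKM. With no adjustment, 724 genes were higher (6.49%) and 870 lower (7.8%) at p under 0.05, and these shares are the background against which the gene lists are read. The changes were moderate, since mean FPKM differed more than 1.5-fold in 36 of the 95 genes and more than 2-fold in 5. Because RNA was taken from whole cultures, fewer cells of a kind and less RNA per cell cannot be told apart. Emr1 and genes named here without an adjusted p under 0.05 were chosen after their values were seen, except those given as the smallest p-values of a list with no call.

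**Figure D1:**
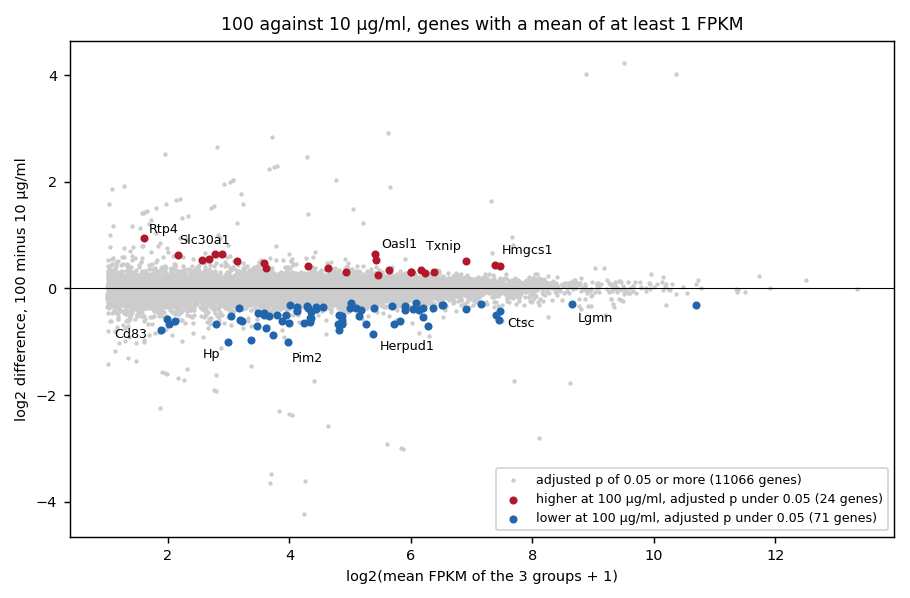
Each point is 1 of the 11161 genes tested, with its mean level on log2(FPKM + 1) along the horizontal axis and the log2 difference between 100 and 10 µg/ml along the vertical axis. Red points are the 24 genes that rose and blue points the 71 genes that fell at an adjusted p under 0.05 (limma). The called genes reach 1.01 in size, and the genes farther out are grey.

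Large differences were not the ones past the threshold. A total of 54 genes differed by more than 1.5 on the log2 scale, 0 of them with an adjusted p under 0.05 in limma. Of these 54 genes, 49 were listed at 0 in at least 1 library and 45 had overlapping values at both doses. The largest difference past the threshold was that of Pim2, 1.01 in size. In all 95 called genes the libraries of both doses were separate. Among all 11161 genes tested, the doses were separate in 1046 genes higher at the higher dose and in 1115 genes lower there. The calls rest on the same values, so this separation is given as a description only.

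The number of calls depended on single libraries. It was 191 without replicate 1 at 100 µg/ml (42 higher and 149 lower), 25 without replicate 2 and 15 without replicate 3 at that dose. It was 8, 15 and 24 without replicates 1, 2 and 3 at 10 µg/ml, and 32, 45 and 45 without control replicates 1, 2 and 3. With only the 6 treated libraries in the fit it was 6 (1 higher and 5 lower). In the 6 fits that each lacked 1 library of either dose, 6 of the 95 genes stayed past the threshold every time, namely Pim2, Herpud1, Pou2f2, Nfkbiz, Pmm2 and Emr1, and 8 did so in 0 of the 6 fits, Ap5s1, Slc30a1, Cyp51, Mylip, Atg9b and 4930430E12Rik among them. Where a gene's adjusted p is followed below by a p without a named library, that is its highest value among these 6 fits. When the differences were first corrected by loess for base composition and for the length of the transcript, the split of calls was 133 higher and 189 lower.

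**Figure D2:**
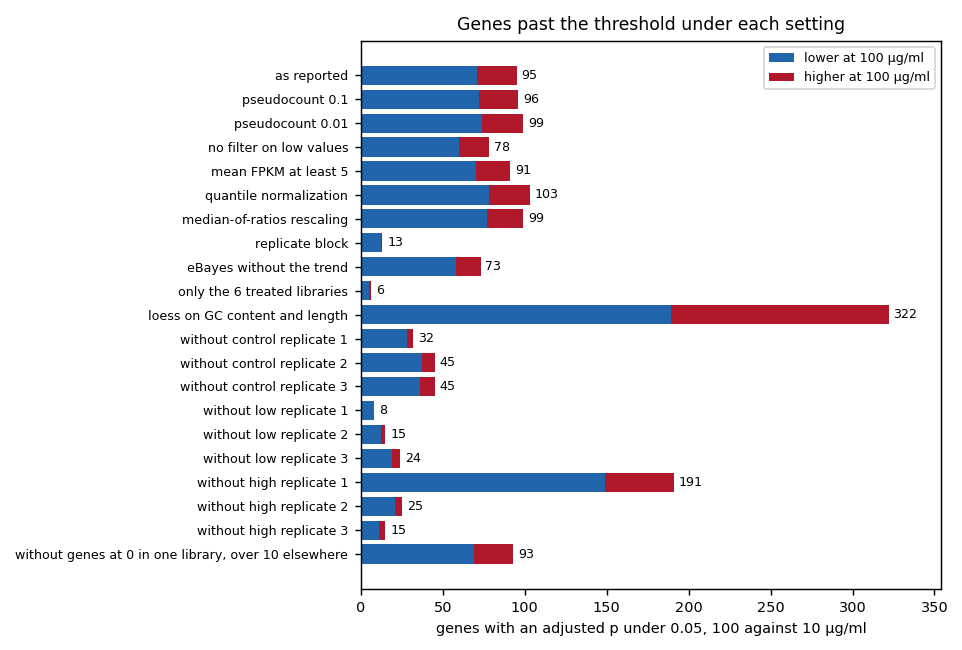
Bars show, from 0, how many genes had an adjusted p under 0.05 (limma) at 100 against 10 µg/ml under each setting, with genes lower at 100 µg/ml in blue and genes higher in red. The number was 95 as reported, 8 without replicate 1 at 10 µg/ml, 191 without replicate 1 at 100 µg/ml and 322 after the correction for GC content and length.

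The next question was whether these genes had already moved at 10 µg/ml. Between 10 µg/ml and control, limma placed 0 genes below an adjusted p of 0.05 and 366 genes below an unadjusted p of 0.05. Of the 95 genes called between the doses, 86 had an unadjusted p of at least 0.05 for 10 µg/ml against control, and 9 had one below it. Those 9 of 95 are a larger share than the 366 of all 11161 genes tested. The call between the doses and this comparison share the libraries at 10 µg/ml. These shares therefore cannot tell whether the called genes had already moved at that dose. The calls also rest on the libraries at 100 µg/ml, so their position beside the other libraries is given as a description. It does not test whether a change was confined to that dose. In 94 of the 95 genes all 3 libraries at 100 µg/ml lay outside the range of the 6 other libraries, as they did in 12.7% of all genes tested. The exception was Ap5s1, which encodes a small subunit of the AP-5 adaptor complex. Its FPKM was 19.7, 20.0 and 27.9 in control cells, 35.3, 33.8 and 44.5 at 10 µg/ml and 21.2, 21.1 and 22.1 at 100 µg/ml. Its level at 100 µg/ml was therefore that of control cells, and its fall from 10 µg/ml (log2 difference -0.78, limma adjusted p = 0.0475, 0.163 without replicate 1 at 10 µg/ml) followed a value of 0.73 for 10 µg/ml against control.

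A direct test asked whether the step from 10 to 100 µg/ml differed from the step from control to 10 µg/ml. Both steps share the libraries at 10 µg/ml, and the test was a contrast in the same fit. It was passed by 2 genes (0.0179% of those tested), Pim2 and Herpud1, and 593 genes had an unadjusted p under 0.05. For Pim2 the steps differed by -1.0 on the log2 scale (standard error 0.10, limma adjusted p = 0.0385), and for Herpud1 by -0.92 (standard error 0.10, limma adjusted p = 0.0385). Neither gene kept this call when a library was left out. In the 9 fits that each lacked 1 library the limma adjusted p was 0.0580 to 0.195 for Pim2 and 0.0580 to 0.195 for Herpud1, and their step differences stayed between -1.03 and -0.94 and between -0.98 and -0.83. Their adjusted p was also above 0.05 after quantile normalization (0.0541 each in limma), without the trend option and after the correction for GC content and length. For the other 93 called genes a difference between the steps did not pass this test.

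**Figure D3:**
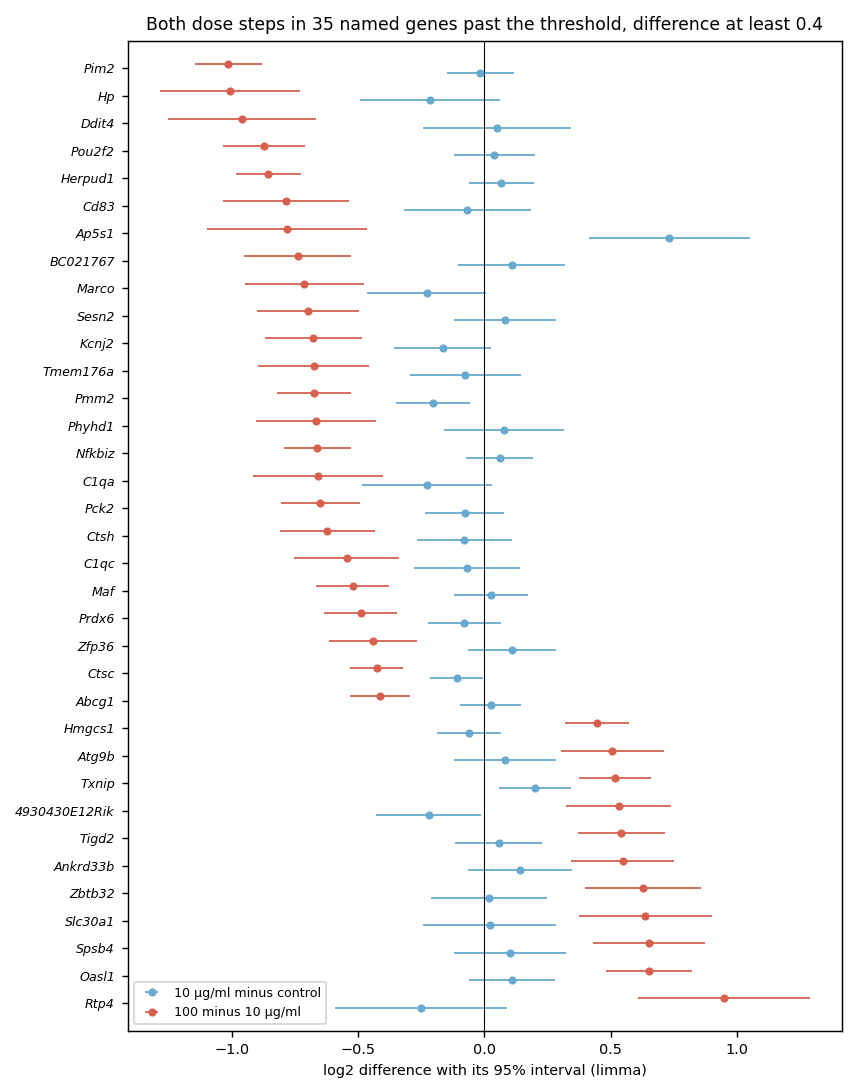
Log2 differences with 95% intervals from limma in the 35 genes named by rule that had an adjusted p under 0.05 at 100 against 10 µg/ml and differed there by at least 0.4. Red points are 100 minus 10 µg/ml and blue points are 10 µg/ml minus control. In 30 of these genes the blue interval includes 0, and Ap5s1, with a blue value of 0.73, stands apart.

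Pim2 encodes a serine/threonine kinase that is induced through STAT5 and favours cell survival and growth. Its FPKM was 17.1, 18.9 and 18.3 in control cells (ENSMUSG00000031155, chrX:7878262-7883432 of GRCm38), 17.5, 17.4 and 18.6 at 10 µg/ml and 8.37, 8.53 and 8.11 at 100 µg/ml. The 6 libraries of the lower doses formed one narrow range and the 3 at 100 µg/ml another, far below it. The gene fell by 53.3% between the doses (95% interval of the log2 difference -1.15 to -0.88), whereas the interval for 10 µg/ml against control was -0.15 to 0.12. In the fits without a library of either dose its adjusted p in limma was at most 0.00695.

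Pim2 was 1 of 38 cytokine receptor and JAK-STAT feedback genes tested, and Ptpn6 was the only other call among them. Before adjustment 11 of the 38 were lower and 2 higher at p under 0.05, and the median difference was -0.09, against 0.00 over all genes tested. Ptpn6 encodes SHP-1, a phosphatase that dampens cytokine and immune receptor signals. Its FPKM was 131, 132 and 119 at 10 µg/ml and 96.1, 99.5 and 95.3 at 100 µg/ml, with no overlap, a log2 difference of -0.39 (standard error 0.06, limma adjusted p = 0.0223, 0.121 without replicate 1 at 10 µg/ml). The receptor gene Csf3r had 6.09, 6.40 and 6.24 FPKM at 10 µg/ml and 3.51, 3.83 and 3.72 FPKM at 100 µg/ml, and just missed the threshold (limma adjusted p = 0.0583). Pim1, whose product is the closest relative of PIM2, had 19.8, 17.4 and 20.2 FPKM and 16.2, 14.7 and 15.1 FPKM (limma adjusted p = 0.109), a smaller difference with separate groups.

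Herpud1 encodes a membrane protein of the endoplasmic reticulum that helps to bring misfolded proteins to degradation. Its FPKM was 44.4, 46.0 and 48.5 in control cells (ENSMUSG00000031770, chr8:94386438-94395377 of GRCm38), 51.7, 46.6 and 47.4 at 10 µg/ml and 26.4, 26.6 and 26.1 at 100 µg/ml. The 3 libraries at 100 µg/ml were nearly equal and far below the other 6. The gene fell by 45.7%, with a 95% interval of the log2 difference of -0.98 to -0.73, and its interval for 10 µg/ml against control was -0.06 to 0.20.

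The promoter of Herpud1 is shown because this gene passed both tests and because elements of both stress pathways described next are known in its upstream region. It is taken from RefSeq on build GRCm38.p6, plus strand, chr8:94386179-94386478, from 250 bases before to 50 bases after the start. Capitals mark an ER stress element II (ATTGG and CCACG with 1 base between, first base at -52 from the start) and, on the opposite strand, a short form of the C/EBP-ATF response element (TGATG and AA with 1 base between, at -112).
Herpud1: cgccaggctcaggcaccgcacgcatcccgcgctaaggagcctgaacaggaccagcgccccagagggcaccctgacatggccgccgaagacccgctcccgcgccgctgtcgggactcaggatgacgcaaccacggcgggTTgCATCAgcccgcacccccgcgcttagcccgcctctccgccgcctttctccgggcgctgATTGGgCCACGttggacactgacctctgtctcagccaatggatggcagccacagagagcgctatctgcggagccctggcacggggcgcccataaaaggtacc
Promoters were matched by symbol for 7812 of the genes tested and 68 of the called genes, and both strands were searched. The ER stress element II occurred in 6 promoters (0.0768%) and the short C/EBP-ATF element in 165 (2.11%), of which 3 belonged to called genes. The classical ER stress element (CCAAT and CCACG with 9 bases between) occurred in 12 promoters (0.154%) and in 0 of the called genes. The ER stress element II, the short C/EBP-ATF element and the sterol element described with Hmgcs1 were added after these promoters had been read, so a match in Herpud1 or Hmgcs1 is a description only.

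Most other genes of the endoplasmic reticulum differed little between the doses. Of 24 ER chaperones and folding enzymes, all tested, 0 passed the adjusted threshold in limma and 2 were lower at an unadjusted p under 0.05, Dnajc3 (log2 difference -0.21) and Ero1l (-0.19). Their median difference was -0.03. Of 32 genes of ER-associated degradation and the stress sensors, Herpud1 was the only call, 1 was higher and 2 were lower at an unadjusted p under 0.05, and the median was -0.03. These shares lie near or below those over all genes.

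The list of ATF4 and integrated stress response genes held 4 of the genes that fell. Of 33 tested, Pck2, Sesn2, Ddit4 and Mthfd2 fell and 0 rose, and at an unadjusted p under 0.05 there were 17 lower (51.5%) and 0 higher, against 7.8% and 6.49% over all genes. Their median difference was -0.21 between the doses and -0.01 for 10 µg/ml against control. By the same unadjusted threshold 20 members were lower without replicate 1 at 100 µg/ml, and 11 without replicate 1 at 10 µg/ml, where 0 passed the adjusted threshold in limma.

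Pck2 encodes the mitochondrial phosphoenolpyruvate carboxykinase. It had 21.2, 19.4 and 19.8 FPKM at 10 µg/ml and 13.7, 11.9 and 11.9 FPKM at 100 µg/ml, a fall of 0.65 on the log2 scale (standard error 0.07, limma adjusted p = 0.00841, 0.0627 without replicate 1 at 10 µg/ml). Its promoter also holds the short C/EBP-ATF element, on the opposite strand at -103. Sesn2 encodes sestrin 2, a leucine sensor that restrains the growth kinase complex mTORC1. Its FPKM was 9.78, 11.9 and 12.2 in control cells, 12.7, 11.4 and 11.8 at 10 µg/ml and 6.86, 7.44 and 6.72 at 100 µg/ml (limma adjusted p = 0.0138, 0.0943 without replicate 1 at 10 µg/ml). All 3 libraries at 100 µg/ml lay below the lowest control library.

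Ddit4 encodes REDD1, another inhibitor of mTORC1. Its FPKM was 10.7, 11.2 and 11.3 in control cells, 13.9, 9.37 and 11.5 at 10 µg/ml and 6.0, 4.70 and 5.59 at 100 µg/ml, so that the spread at 10 µg/ml was wide but did not reach the values at 100 µg/ml. The 95% interval of its log2 difference was -1.25 to -0.67, and its adjusted p in limma was 0.0794 without replicate 3 at 10 µg/ml. Mthfd2 encodes a mitochondrial enzyme of one-carbon metabolism and had 86.0, 83.9 and 90.0 FPKM at 10 µg/ml and 71.5, 64.4 and 64.9 FPKM at 100 µg/ml (log2 difference -0.37, limma adjusted p = 0.0249, 0.121 without replicate 1 at 10 µg/ml).

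Members of the list that missed the threshold included the stress regulators Trib3, with 7.28, 5.07 and 5.87 FPKM at 10 µg/ml and 4.87, 3.71 and 2.72 FPKM at 100 µg/ml, and Nupr1, with 6.56, 5.62 and 6.54 FPKM and 4.88, 2.17 and 3.26 FPKM. Their adjusted p in limma was 0.172 and 0.146, and both doses were separate in each gene. The mRNA of ATF4 itself differed little, with 194, 184 and 195 FPKM at 10 µg/ml and 216, 167 and 170.3 FPKM at 100 µg/ml (log2 difference -0.06, standard error 0.09). Asns, which encodes asparagine synthetase, had 82.2, 79.5 and 79.0 FPKM and 77.8, 74.6 and 73.5 FPKM (log2 difference -0.09, limma adjusted p = 0.477). Of the 20 cytosolic aminoacyl-tRNA synthetases, 0 passed the adjusted threshold in limma, and 5 were lower and 0 higher at an unadjusted p under 0.05. The smallest p-values among them were those of Nars (-0.31, limma adjusted p = 0.0609) and Aars (-0.26, limma adjusted p = 0.0787).

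**Figure D4:**
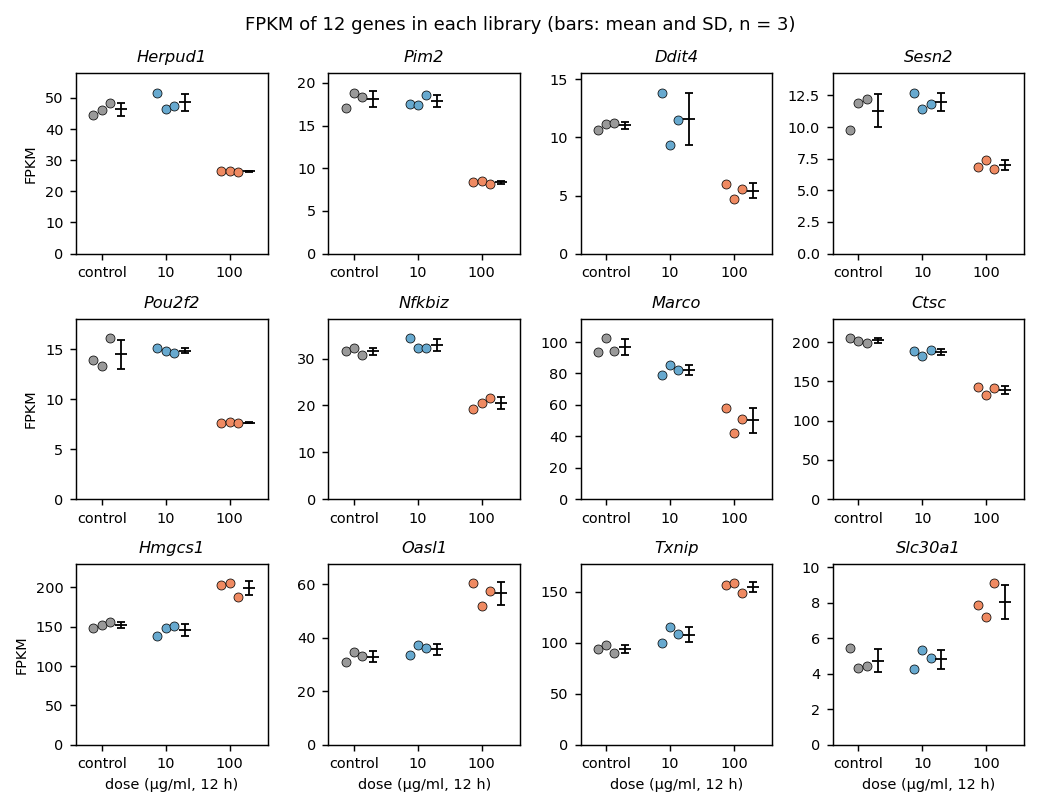
FPKM of 12 genes in each of the 9 libraries, with the mean and SD (n = 3) of each group beside the points. In every panel the 3 libraries at 100 µg/ml are separate from the 6 others, lower in the first 8 panels and higher in the last 4.

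Most genes of sterol synthesis lay on the other side of zero. Of 27 genes of cholesterol synthesis and uptake tested, 2 rose (Hmgcs1 and Cyp51) and 0 fell, and at an unadjusted p under 0.05 there were 10 higher and 1 lower. The median difference was 0.15 between the doses and -0.01 for 10 µg/ml against control. Hmgcs1 encodes the cytosolic HMG-CoA synthase at the head of the pathway. Its FPKM was 148, 152 and 156 in control cells (ENSMUSG00000093930, chr13:119690462-119708086 of GRCm38), 138, 149 and 151 at 10 µg/ml and 203, 205 and 188 at 100 µg/ml. The control and 10 µg/ml libraries overlapped each other and all lay below the 3 at 100 µg/ml. The log2 difference was 0.45 (standard error 0.06, limma adjusted p = 0.0138, 0.0734 without replicate 1 at 10 µg/ml).

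The promoter of Hmgcs1 is shown as the one among the called sterol genes with a sterol regulatory element, the letters CACCCCAC, marked in capitals at -136 from the start. It is taken from RefSeq on build GRCm38.p6, plus strand, chr13:119690101-119690400, and its start lies 111 bases before that of the deposited gene.
Hmgcs1: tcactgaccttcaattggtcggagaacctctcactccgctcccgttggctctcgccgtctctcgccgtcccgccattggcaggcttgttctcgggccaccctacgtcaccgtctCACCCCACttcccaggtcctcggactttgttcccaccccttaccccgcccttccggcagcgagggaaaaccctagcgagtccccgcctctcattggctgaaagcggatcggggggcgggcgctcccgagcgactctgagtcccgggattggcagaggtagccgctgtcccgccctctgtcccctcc
These letters occurred in 223 of the 7812 promoters (2.85%), in 5 of the 68 called genes with a promoter and in 2 of the 20 sterol genes with one.

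Cyp51 encodes the lanosterol demethylase of the later pathway. Its FPKM was 69.3, 69.6 and 66.3 at 10 µg/ml and 85.3, 85.1 and 81.0 at 100 µg/ml (log2 difference 0.29, limma adjusted p = 0.0492, 0.173 without replicate 1 at 10 µg/ml). Further enzymes with separate groups and higher levels that missed the threshold were Idi1 (0.35, limma adjusted p = 0.0690), Sqle (0.20, limma adjusted p = 0.119) and Msmo1 (0.27, limma adjusted p = 0.118). Idi1, the isomerase of the isoprenoid steps, had 20.1, 20.0 and 19.8 FPKM at 10 µg/ml and 27.2, 24.5 and 25.6 FPKM at 100 µg/ml. Tm7sf2, a sterol reductase, was the 1 member lower at an unadjusted p under 0.05, with 4.80, 5.61 and 4.62 FPKM against 3.79, 3.48 and 3.80 FPKM (limma adjusted p = 0.208).

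A gene of sterol export and one of a ubiquitin ligase fell. Of 27 fatty acid and LXR target genes tested, 2 fell and 0 rose, and both that fell are LXR targets. Abcg1 encodes a transporter that exports cholesterol and had 37.9, 39.8 and 38.4 FPKM at 10 µg/ml and 28.1, 30.5 and 27.8 FPKM at 100 µg/ml (log2 difference -0.41, limma adjusted p = 0.0138, 0.0762 without replicate 3 at 100 µg/ml). Mylip encodes the ubiquitin ligase IDOL and had 8.78, 8.81 and 8.25 FPKM and 6.2, 6.28 and 6.76 FPKM (log2 difference -0.38, limma adjusted p = 0.0462, 0.200 without replicate 1 at 10 µg/ml). The groups were separate for both genes. At an unadjusted p under 0.05, 5 members were lower and 2 higher, and the median was -0.05.

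Txnip, the gene of the alpha arrestin that binds thioredoxin and lowers glucose uptake, had its values in the order of dose. Its FPKM was 93.8, 97.5 and 89.5 in control cells (ENSMUSG00000038393, chr3:96557957-96561883 of GRCm38), 99.9, 115 and 109 at 10 µg/ml and 157, 158 and 149 at 100 µg/ml, and no group overlapped another. The log2 difference was 0.52 between the doses (limma adjusted p = 0.0133, 0.0655 without replicate 1 at 10 µg/ml) and 0.20 for 10 µg/ml against control (95% interval 0.06 to 0.34). The interval is unadjusted, and 0 genes passed the adjusted threshold in limma for 10 µg/ml against control. Of 9 alpha arrestin and Mlx family genes tested, Txnip was the only call, 4 were higher and 0 lower at an unadjusted p under 0.05, and the median was 0.06. Among glycolysis and hypoxia-responsive genes, 1 of 36 fell, Hk2, which encodes a hexokinase, with 72.4, 70.5 and 67.4 FPKM at 10 µg/ml and 50.2, 55.7 and 55.5 FPKM at 100 µg/ml (log2 difference -0.38, limma adjusted p = 0.0249, 0.127 without replicate 1 at 10 µg/ml). The list around it had 4 members higher and 5 lower at an unadjusted p under 0.05 and a median of 0.04.

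Of 37 NRF2 target and thiol defence genes tested, 2 fell (Prdx6 and Sod2) and 0 rose, with 5 higher and 3 lower at an unadjusted p under 0.05 and a median of 0.04. Prdx6 encodes a peroxiredoxin that reduces phospholipid peroxides. It has a close copy, Prdx6b, with which reads may be shared. Its FPKM was 174, 180.1 and 193 at 10 µg/ml and 137, 119.8 and 132 at 100 µg/ml, without overlap (log2 difference -0.49, limma adjusted p = 0.0141, 0.0762 without replicate 3 at 100 µg/ml). Sod2 encodes the mitochondrial superoxide dismutase and is also a target of NF-kB. It had 92.2, 95.5 and 98.7 FPKM and 78.5, 75.1 and 77.4 FPKM (log2 difference -0.31, limma adjusted p = 0.0389, 0.139 without replicate 3 at 10 µg/ml).

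Among 32 NF-kB targets and regulators tested, 4 fell (Nfkbiz, Cd83, Icam1 and Sod2) and 0 rose, and at an unadjusted p under 0.05 there were 10 lower and 4 higher. The median difference was -0.13. Nfkbiz encodes IkB-zeta, a nuclear cofactor of NF-kB. Its FPKM was 31.6, 32.3 and 30.6 in control cells (ENSMUSG00000035356, chr16:55811375-55838899 of GRCm38), 34.4, 32.2 and 32.2 at 10 µg/ml and 19.2, 20.5 and 21.6 at 100 µg/ml. The control and 10 µg/ml values were close to each other and far above all 3 at 100 µg/ml (log2 difference -0.66, 95% interval -0.79 to -0.53, limma adjusted p = 0.00424).

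Cd83 encodes a surface protein of activated antigen-presenting cells and was expressed at a low level. It had 3.55, 2.89 and 3.23 FPKM at 10 µg/ml and 1.65, 1.18 and 1.52 FPKM at 100 µg/ml (log2 difference -0.79, limma adjusted p = 0.0215, 0.108 without replicate 1 at 10 µg/ml). Icam1 encodes an adhesion molecule for leukocytes and had 19.6, 18.9 and 19.2 FPKM and 15.1, 14.9 and 15.3 FPKM (log2 difference -0.33, limma adjusted p = 0.0293, 0.149 without replicate 1 at 10 µg/ml). Within each dose its 3 libraries differed very little. Tnfaip3, the gene of the feedback inhibitor A20, had 26.0, 29.1 and 28.9 FPKM and 18.6, 22.6 and 19.7 FPKM (limma adjusted p = 0.0977). Il1rn, the gene of the interleukin-1 receptor antagonist, pointed the other way, with 35.8, 35 and 43.0 FPKM and 57.4, 48.8 and 57.6 FPKM, and missed the threshold (limma adjusted p = 0.0513). Tnf itself had 30.9, 33.8 and 32.5 FPKM and 33.8, 28.5 and 27.8 FPKM, with overlapping groups.

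The AP-1 and MAP kinase lists each held 1 called gene. Zfp36, whose product tristetraprolin degrades mRNAs of inflammatory cytokines, was the 1 that fell among 23 AP-1 and immediate early genes, with 21.6, 21.3 and 23.3 FPKM at 10 µg/ml and 16.5, 15 and 16.5 FPKM at 100 µg/ml (log2 difference -0.44, limma adjusted p = 0.0448, 0.163 without replicate 1 at 10 µg/ml). Etv5, an ETS factor driven by ERK signaling, fell among 19 MAP kinase feedback genes, with 21.6, 23.7 and 23.1 FPKM and 16.2, 18.1 and 17.5 FPKM (log2 difference -0.38, limma adjusted p = 0.0293, 0.123 without replicate 3 at 10 µg/ml). The former list had 5 members higher and 4 lower at an unadjusted p under 0.05, and the latter 4 higher and 3 lower. Members of both lists lay on either side of zero.

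Interferon-stimulated genes were more often higher than lower. Of 62 genes on the list, 22 lay below 1 FPKM and 40 were tested, of which 2 rose (Oasl1 and Rtp4) and 0 fell. At an unadjusted p under 0.05 there were 11 higher and 3 lower, and the median was 0.06. This excess lay largely in members of low FPKM. With the filter at a mean of 5 FPKM, 24 members were tested, 1 rose and 0 fell. Of those 24, 4 were higher and 3 lower at an unadjusted p under 0.05, with a median of 0.04. Oasl1 encodes a member of the oligoadenylate synthetase family. Its FPKM was 30.8, 34.8 and 33.2 in control cells (ENSMUSG00000041827, chr5:114923240-114937915 of GRCm38), 33.4, 37.4 and 36.1 at 10 µg/ml and 60.3, 51.9 and 57.6 at 100 µg/ml. The 3 libraries at 100 µg/ml lay well above the other 6, which overlapped (log2 difference 0.65, limma adjusted p = 0.0113, 0.0655 without replicate 1 at 10 µg/ml).

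Rtp4 encodes a chaperone of membrane receptors that interferon induces, and it was close to the filter. Its FPKM was 1.61, 1.42 and 1.81 in control cells, 0.937, 1.03 and 1.69 at 10 µg/ml and 3.70, 2.86 and 3.20 at 100 µg/ml. Its rise between the doses (log2 difference 0.95, 95% interval 0.61 to 1.29, limma adjusted p = 0.0323, 0.131 without replicate 1 at 10 µg/ml) started from values at 10 µg/ml of which 2 lay below all control libraries. At these levels a few fragments decide the value. Further members with separate groups that missed the threshold were Cxcl10, with 3.18, 4.25 and 4.31 FPKM at 10 µg/ml and 5.87, 6.27 and 8.4 FPKM at 100 µg/ml (limma adjusted p = 0.0853), Oas2, with 3.46, 4.26 and 3.76 FPKM and 4.75, 5.50 and 4.72 FPKM, and Usp18, with 1.52, 1.45 and 1.54 FPKM and 3.05, 2.01 and 2.01 FPKM. The letters GAAA and GAAA with 2 bases between, an interferon-stimulated response element, were in 13 of the 30 members with a promoter and in 233 of the 7812 promoters (2.98%), but not in the window of Oasl1.

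Chemokine and antigen presentation genes had no call. Of 17 chemokine and chemoattractant receptor genes tested, 0 passed the adjusted threshold in limma, with 1 higher and 3 lower at an unadjusted p under 0.05. The receptor gene Fpr1 came closest, with 1.95, 1.37 and 1.45 FPKM at 10 µg/ml and 0.335, 0.599 and 0.694 FPKM at 100 µg/ml (log2 difference -0.75, limma adjusted p = 0.0666), followed by C3ar1, the receptor for the complement fragment C3a, with 96.0, 92.9 and 90.6 FPKM and 70.6, 79.7 and 78.8 FPKM (limma adjusted p = 0.0744). Of 19 antigen presentation genes tested, 0 passed in limma and 1 was lower at an unadjusted p under 0.05. The smallest p-values were those of Cd86 (log2 difference -0.23) and Tap2 (-0.14).

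**Figure D5:**
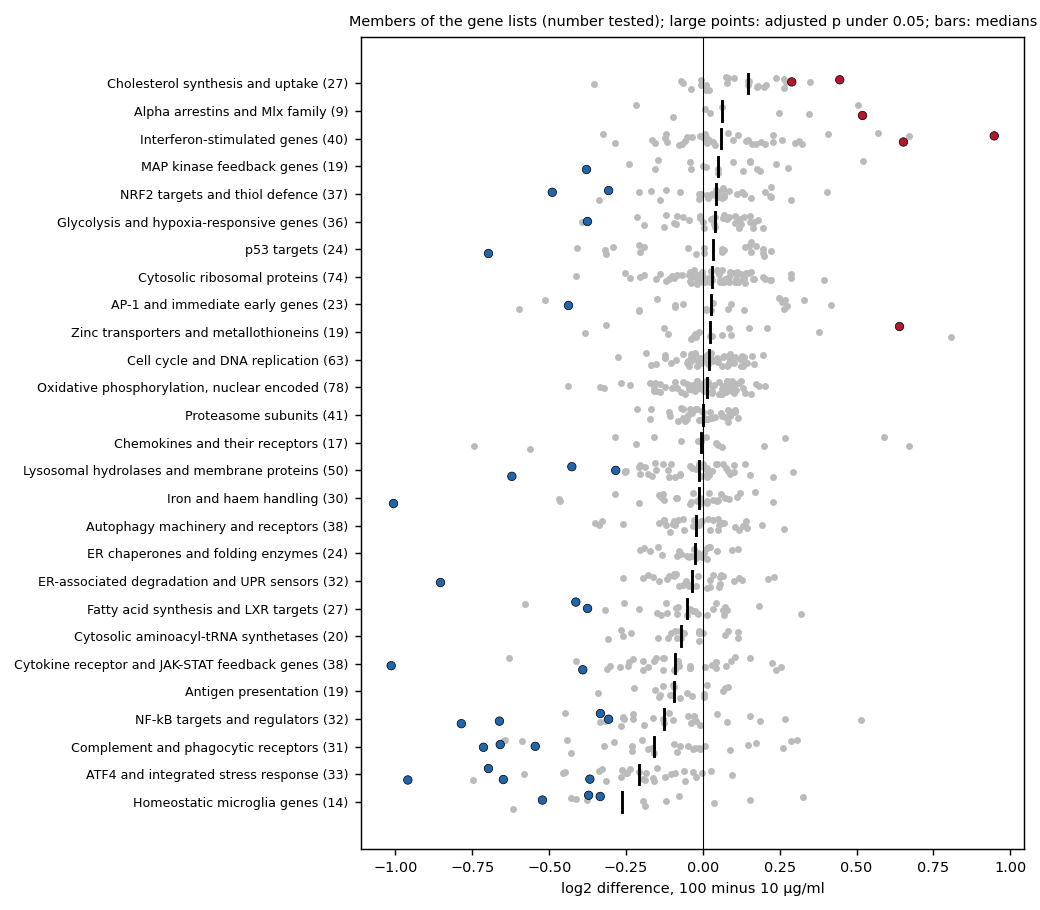
Each point is a gene tested on one of the gene lists, placed by its log2 difference between 100 and 10 µg/ml. Large coloured points had an adjusted p under 0.05 (limma), and the vertical bar of each list is its median. The lists of homeostatic microglia genes (median -0.26) and ATF4 genes (-0.21) lie farthest to the left and cholesterol synthesis (0.15) farthest to the right.

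Genes of the scavenger receptor MARCO and of C1q, the recognition molecule of the classical complement pathway, fell. Of 31 complement and phagocytic receptor genes tested, 3 fell (Marco, C1qc and C1qa) and 0 rose, and at an unadjusted p under 0.05 there were 13 lower and 3 higher, with a median of -0.16. Marco encodes a scavenger receptor that binds bacteria and mineral particles. Its FPKM was 93.8, 103 and 94.1 in control cells (ENSMUSG00000026390, chr1:120474538-120505024 of GRCm38), 79.3, 85.7 and 82.3 at 10 µg/ml and 58.0, 42.0 and 50.8 at 100 µg/ml. The 3 groups were separate and in the order of dose, with log2 differences of -0.71 between the doses (limma adjusted p = 0.0243, 0.109 without replicate 1 at 10 µg/ml) and -0.23 for 10 µg/ml against control (95% interval -0.46 to 0.01).

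The complement gene C1qa had 6.27, 6.18 and 6.64 FPKM at 10 µg/ml and 4.49, 3.14 and 3.46 FPKM at 100 µg/ml (log2 difference -0.66, limma adjusted p = 0.0419, 0.163 without replicate 1 at 10 µg/ml). C1qc, which encodes another chain of the same C1q molecule, had 80.9, 77.6 and 79.4 FPKM and 62.2, 47.2 and 53.6 FPKM (log2 difference -0.55, limma adjusted p = 0.0396, 0.173 without replicate 1 at 10 µg/ml). The gene of the third chain, C1qb, had 182, 168 and 185 FPKM and 168, 124 and 139.6 FPKM, a log2 difference of -0.32 that did not pass (limma adjusted p = 0.201). In these 3 genes and in Marco the library that stood apart, replicate 1, was the highest at 100 µg/ml. The central complement gene C3 had 34.1, 40.1 and 29.8 FPKM and 17.5, 24.7 and 23.2 FPKM (limma adjusted p = 0.0787). Clec7a, the gene of the beta-glucan receptor dectin-1, had 33.9, 24.2 and 22.5 FPKM and 17.4, 17.8 and 16.5 FPKM (limma adjusted p = 0.0977). Itgb2, the beta-2 integrin gene, was among the 3 members that were higher, with 52.8, 46.2 and 52.5 FPKM and 61.2, 59.1 and 61.5 FPKM (limma adjusted p = 0.111).

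Of the 14 homeostatic microglia genes that reached the filter, 3 fell, Maf and Selplg among them, and 0 rose, with 9 lower and 1 higher at an unadjusted p under 0.05. The median was -0.26 between the doses. Maf encodes a transcription factor of mature macrophages and microglia. Maf had 30.4, 30.5 and 32.1 FPKM in control cells, 32.7, 33.1 and 29.2 at 10 µg/ml and 22.2, 22.4 and 20.5 at 100 µg/ml (log2 difference -0.52, limma adjusted p = 0.0138, 0.0823 without replicate 1 at 10 µg/ml), and it shares part of its span with the antisense gene Gm15655, from which its reads cannot be told apart if strand was not used. Selplg encodes a ligand of selectins and had 19.4, 20.9 and 19.9 FPKM at 10 µg/ml and 15.7, 16.2 and 14.0 FPKM at 100 µg/ml (limma adjusted p = 0.0459, 0.160 without replicate 1 at 10 µg/ml). Mertk, the gene of a receptor for dying cells, had 6.18, 5.80 and 5.35 FPKM and 3.71, 4.47 and 3.94 FPKM (limma adjusted p = 0.0609).

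Of the 13 lineage markers tested, Emr1 alone fell, 3 were lower (23.1%) and 1 higher at an unadjusted p under 0.05, 11 lay below zero and the median was -0.09. It encodes the adhesion receptor F4/80 and had 199, 208 and 200.4 FPKM in control cells, 192, 193 and 189 at 10 µg/ml and 117, 133 and 132 at 100 µg/ml (log2 difference -0.59, limma adjusted p = 0.00598). The 3 libraries at 100 µg/ml were all below the rest. Csf1r, the gene of the receptor on which microglia depend, had 144, 139.6 and 138 FPKM and 116, 124 and 128 FPKM (limma adjusted p = 0.141), while Aif1, which encodes IBA1, had 5.17, 4.09 and 5.65 FPKM and 3.92, 4.92 and 2.76 FPKM (log2 difference -0.31, standard error 0.17). The summed lineage markers overlapped between the doses, and their part in the other falls was not tested.

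Among 50 lysosomal genes tested, 3 fell (Ctsc, Ctsh and Lgmn) and 0 rose, all 3 of them genes of cysteine proteases. Ctsc encodes cathepsin C, which activates other proteases. Its FPKM was 205, 202 and 199 in control cells, 189, 183 and 190.1 at 10 µg/ml and 143, 133 and 142 at 100 µg/ml, in 3 separate groups. The log2 difference was -0.43 between the doses (limma adjusted p = 0.00989, 0.0655 without replicate 1 at 10 µg/ml) and -0.11 for 10 µg/ml against control. The latter step did not pass the adjusted threshold. Ctsh, which encodes cathepsin H, had 22.2, 19.9 and 22.1 FPKM and 13.9, 13.9 and 12.8 FPKM at the 2 doses (log2 difference -0.62, limma adjusted p = 0.0174, 0.108 without replicate 1 at 10 µg/ml). Lgmn, which encodes the asparagine endopeptidase legumain, had 428, 422 and 416 FPKM and 365, 346 and 329.8 FPKM (log2 difference -0.28, limma adjusted p = 0.0475, 0.200 without replicate 1 at 10 µg/ml).

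The other lysosomal genes lay on both sides of zero. At an unadjusted p under 0.05, 12 of the 50 members were lower and 1 higher, but the median was -0.01, and the aspartic protease gene Ctsd had 1550.3, 1591 and 1697 FPKM at 10 µg/ml and 1922, 1599 and 1635 FPKM at 100 µg/ml (log2 difference 0.09, standard error 0.08). Ctsk was the member that was higher, with 3151, 3008 and 3455 FPKM and 4182, 3485 and 3616 FPKM (limma adjusted p = 0.279). Of 38 autophagy genes tested, 0 passed the adjusted threshold in limma, with 1 higher and 4 lower at an unadjusted p under 0.05. The smallest p-values were those of Gabarapl1 (-0.33, limma adjusted p = 0.0844) and Uvrag (0.26, limma adjusted p = 0.0934). Atg9b, which was not on that list, is described with the largest rises.

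The metal lists held 1 call each. Slc30a1 encodes ZnT1, the exporter of zinc at the plasma membrane, and is a classical target of the metal-sensing factor MTF-1. Its FPKM was 5.47, 4.32 and 4.42 in control cells (ENSMUSG00000037434, chr1:191906767-191913247 of GRCm38), 4.25, 5.33 and 4.86 at 10 µg/ml and 7.86, 7.20 and 9.09 at 100 µg/ml. The control and 10 µg/ml libraries overlapped and all lay below those at 100 µg/ml (log2 difference 0.64, 95% interval 0.37 to 0.90, limma adjusted p = 0.0489, 0.200 without replicate 1 at 10 µg/ml). Of the 19 zinc transporter and metallothionein genes tested it was the only call, and 3 were higher and 1 lower at an unadjusted p under 0.05, with a median of 0.02. Metallothionein gene Mt2, also a target of MTF-1, had 116, 163 and 187 FPKM at 10 µg/ml and 323, 188 and 312 FPKM at 100 µg/ml, and Mt1 had 432, 546 and 546 FPKM and 819.5, 515 and 669.6 FPKM. Both varied widely between libraries (limma adjusted p = 0.292 and 0.470).

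The promoter of Slc30a1 is shown because metal response elements are what it is known for. It is taken from RefSeq on build GRCm38.p6, plus strand, chr1:191906531-191906830. Capitals mark the fixed letters of a core TGCAC and C with 1 base between, at -43 on the opposite strand, and of a core TGCGC and C with 1 base between, at 31 on the opposite strand.
Slc30a1: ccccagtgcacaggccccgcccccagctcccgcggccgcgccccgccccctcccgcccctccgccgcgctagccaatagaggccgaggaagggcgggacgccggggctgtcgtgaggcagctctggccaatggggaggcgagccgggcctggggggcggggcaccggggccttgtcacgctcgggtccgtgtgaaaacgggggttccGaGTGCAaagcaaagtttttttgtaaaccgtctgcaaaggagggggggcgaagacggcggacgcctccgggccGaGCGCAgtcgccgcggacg
Such short cores are common, and occurred in 951 (12.2%) and 2197 (28.1%) of the 7812 promoters. Each of them was found in 6 of the 16 zinc genes with a promoter. The other elements searched were the UPR element TGACGTG (2.96% of promoters), the C/EBP-ATF element with TGATG and AAT 1 base apart (0.346%), the STAT element with TTC and GAA 3 bases apart (6.73%), the CRE TGACGTCA (3.57%) and an NF-kB element with GGGA and TCC 3 bases apart (5.09%). None of these 5 was found in the promoter window of a called member of the list it was set beside. Over all 68 called genes with a promoter, the STAT element was in 13 and the UPR element in 3. The NF-kB element was in 2 of them, the CRE in 1 and the C/EBP-ATF element in 0. Whether the STAT element was more frequent among called genes was not tested.

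Hp encodes haptoglobin, which binds free haemoglobin and is induced in inflammation. It was the only call among 30 iron and haem genes tested, of which 1 was higher and 5 were lower at an unadjusted p under 0.05, with a median of -0.01. Its FPKM was 9.51, 9.02 and 9.41 in control cells, 7.48, 7.45 and 8.79 at 10 µg/ml and 3.60, 2.66 and 4.13 at 100 µg/ml. The 3 groups were separate and in the order of dose (log2 difference between the doses -1.01, limma adjusted p = 0.0133, 0.0689 without replicate 1 at 10 µg/ml), with an interval for 10 µg/ml against control of -0.49 to 0.06.

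Housekeeping and growth lists had no call under an adjusted p of 0.05 in limma. Among 63 cell cycle and DNA replication genes, 3 were higher and 2 lower at an unadjusted p under 0.05, the smallest p-values being those of Ccnb2 (-0.28) and Ccne1 (0.20). Among 74 cytosolic ribosomal protein genes 1 was higher, Rpl23a (0.39), and 0 were lower, and Rpl35 had 0.29. Reads of ribosomal protein genes may be shared with their many processed pseudogenes. Among 78 nuclear genes of oxidative phosphorylation 1 was higher and 2 were lower, Ndufs4 (-0.44) and Atp5a1 (-0.32). Among 41 proteasome subunits 1 was higher, Psme3 (0.10), and 1 was lower, Psmd7 (-0.21). These shares lie at or below the background of 6.49% higher and 7.8% lower, and none of these lists had a median beyond 0.03 from zero. The medians of the ribosomal and oxidative phosphorylation lists depended on the libraries at 100 µg/ml. Without replicate 1 they were each -0.09, and without replicate 2 they were 0.11 and 0.10.

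Leaving out replicate 1 at 100 µg/ml, the library that stood apart, changed the calls of 10 lists. Over all 11161 genes tested that fit had 149 falls and 42 rises, the background for the counts below. It had the most calls of the fits that lacked a library. Without replicate 1 at 10 µg/ml all genes together had 8 falls and 0 rises, so the counts below do not show how the lists fare there. Falls then numbered 7 for ATF4 genes, 6 for NF-kB, 4 for complement and phagocytic receptors, 3 for fatty acid and LXR genes, 2 for p53 targets, 2 for chemokines, and 1 each for tRNA synthetases, oxidative phosphorylation, proteasome subunits and zinc genes. Rises were 1 for fatty acid and LXR genes, 1 for p53 targets and 0 for zinc genes, and the other function lists had as many calls as with all libraries. The 1 fall among 78 oxidative phosphorylation genes was near the share of falls over all genes in that fit. Some lists with few or 0 calls then had a larger share of members lower at an unadjusted p under 0.05 than the 9.88% of all genes in that fit. They were 8 of 20 tRNA synthetases, 9 of 41 proteasome subunits and 6 of 24 ER chaperones. The 8 each of 74 ribosomal and 78 oxidative phosphorylation genes (10.8% and 10.3%) were near the share of all genes.

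Of 24 p53 target genes tested, Sesn2, already described, was the only call, with 4 higher and 5 lower at an unadjusted p under 0.05. The function lists together held 33 of the 95 called genes. The largest falls outside the lists were those of Pou2f2, BC021767, Ap5s1, Kcnj2, Tmem176a, Pmm2 and Phyhd1. Pou2f2 encodes OCT2, a transcription factor of B cells and macrophages. Its FPKM was 14.0, 13.3 and 16.1 in control cells (ENSMUSG00000008496, chr7:25087344-25159922 of GRCm38), 15.1, 14.8 and 14.6 at 10 µg/ml and 7.63, 7.76 and 7.59 at 100 µg/ml, and at both doses the 3 libraries were nearly equal (95% interval of the log2 difference -1.03 to -0.71, limma adjusted p at most 0.0326 with a library of either dose left out).

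Pmm2 encodes the phosphomannomutase that supplies mannose for protein glycosylation. It had 60.4, 67.6 and 66.9 FPKM in control cells, 54.6, 56.0 and 58.1 at 10 µg/ml and 35.4, 32.6 and 36.7 at 100 µg/ml, in 3 separate groups, and shares 39 bases with the oppositely oriented Tmem186 (log2 difference between the doses -0.67, limma adjusted p = 0.00598). Its value for 10 µg/ml against control was -0.20 (95% interval -0.35 to -0.06, unadjusted), a step that did not pass the adjusted threshold. Kcnj2 encodes the inward rectifier potassium channel Kir2.1 and had 44.2, 40.8 and 37.9 FPKM at 10 µg/ml and 22.4, 27.4 and 26.1 FPKM at 100 µg/ml (log2 difference -0.68, limma adjusted p = 0.0138, 0.0794 without replicate 1 at 10 µg/ml). Tmem176a, a gene of an intracellular membrane protein of myeloid cells, had 29.0, 28.8 and 32.2 FPKM and 20.0, 16.7 and 18.6 FPKM (log2 difference -0.68, limma adjusted p = 0.0228, 0.108 without replicate 1 at 10 µg/ml). Phyhd1 had 4.0, 3.23 and 3.90 FPKM and 1.97, 1.81 and 2.1 FPKM (log2 difference -0.67, limma adjusted p = 0.0311, 0.146 without replicate 1 at 10 µg/ml). BC021767 is annotated as a transcribed pseudogene, so reads shared with a related gene leave its fall of 0.74 on the log2 scale uncertain (limma adjusted p = 0.0138, 0.0762 without replicate 3 at 100 µg/ml).

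The largest rises outside the lists were those of Spsb4, Zbtb32, Ankrd33b, Tigd2, 4930430E12Rik and Atg9b. Spsb4 encodes a SOCS-box protein of a ubiquitin ligase and had 5.25, 5.51 and 5.21 FPKM at 10 µg/ml and 10.1, 7.53 and 9.35 FPKM at 100 µg/ml (log2 difference 0.65, limma adjusted p = 0.0255, 0.129 without replicate 1 at 10 µg/ml). Zbtb32, a zinc finger repressor of lymphocytes, had 2.65, 2.91 and 2.80 FPKM and 4.55, 5.10 and 4.90 FPKM (log2 difference 0.63, limma adjusted p = 0.0326, 0.147 without replicate 1 at 10 µg/ml). Atg9b, which encodes a lipid scramblase of autophagy, had 6.52, 6.42 and 7.55 FPKM and 10.7, 9.14 and 10.5 FPKM (log2 difference 0.51, limma adjusted p = 0.0459, 0.200 without replicate 1 at 10 µg/ml). Ankrd33b and Tigd2 differed by 0.55 and 0.54, with separate groups (limma adjusted p = 0.0356 and 0.0215, 0.163 without replicate 1 at 10 µg/ml and 0.104 without replicate 1 at 10 µg/ml). 4930430E12Rik, annotated as an antisense transcript, had 33.9, 34.9 and 34.6 FPKM and 52.8, 46.2 and 52.0 FPKM (limma adjusted p = 0.0426, 0.182 without replicate 1 at 10 µg/ml), and whether the counting used strand was not stated.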

How the data were processed

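RNA from 9 BV2 samples, 3 each of non-treated cells and of cells given particles at 10 or at 100 µg/ml, was sequenced by the authors. The deposited values are FPKM per gene, which the authors computed with Cufflinks 2.1.1 after alignment with TopHat, on the mouse genome GRCm38 with Ensembl release 77, per the study's methods and the submitters' processing notes. Whether counting used strand was not given in the sources used here. Counts were not used here, and depth was approximated from the steps between low FPKM values, of which 75.7% to 83.3% lay within 0.25 of a whole number of fragments.

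Genes averaging at least 1 FPKM were tested with limma 3.58.1 (R 4.3.3) on log2(FPKM + 1), with trended variance, all 3 groups in one model and Benjamini-Hochberg adjustment. Cuffdiff, which the authors used, needs alignments and was not run. On simulated data with 200 changed genes among 11161 for 100 against 10 µg/ml, the test recovered 56.5% of log2 steps of 0.5, with 5 false calls, and 90.5% of steps of 1, with 7 false calls. The simulated noise was independent between genes and equally wide in every library. The real libraries include one that stood apart, so these figures are not error rates of the real comparison.

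Named genes were the 15 largest falls and 10 largest rises among called genes with separate groups, every called member of a function list, in a list with no call the 2 members with the smallest p, and the genes called for the difference of the dose steps. The lists, the compared groups and this rule were chosen with earlier results of these data known, and 10 list entries were not matched and are not analysed here. Values of some list members are not reported here. The files' coordinates are printed as deposited, and 30428 of 40993 genes had the same coordinates in GENCODE M21. Promoters came from a RefSeq table (GRCm38.p6) and were searched on both strands with Python 3.11.15 and pandas 2.3.3. Figures were drawn with matplotlib 3.10.9. Alternatives were another pseudocount (0.1 and 0.01), no filter or a mean of 5 FPKM, quantile and median-of-ratios rescaling, a replicate block, no variance trend, the 6 treated libraries alone, loess on GC content and length, and each library left out. Leaving out genes at 0 in 1 library and above 10 FPKM in another, and the promoter elements named as added, were chosen after seeing the data.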

Additional observations from a re-analysis of the deposited data

How the results depend on the processing

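The 95 calls at 100 against 10 µg/ml became 6 when only the 6 treated libraries were fitted and 322 after loess correction, and ranged from 8 (without replicate 1 at 10 µg/ml) to 191 (without replicate 1 at 100 µg/ml) with 1 library left out. Replicate numbers did not pair the libraries (correlations of deviations between the doses -0.09, 0.07 and -0.08), and a replicate block gave 13 calls there and 0 for the difference of the dose steps. That difference, with 2 calls as reported, had 4 without the filter on low values, 0 after quantile normalization, 0 without the variance trend, 0 after loess correction, and 0 to 2 with 1 library left out, Pim2 and Herpud1 never among them. At an unadjusted p under 0.05 it then had 550 genes with the block, 610 after quantile normalization, 609 without the trend and 849 after loess correction. The comparison of 10 µg/ml with control had 4 calls without the filter and 0 to 2 with 1 library left out. The other settings kept the count for 100 against 10 µg/ml between 73 and 103. Of the 46 named genes that were called, 45 stayed past the threshold after loess correction, 36 without the trend, 10 with the block and 4 with the 6 treated libraries, and 6 to 40 with a library of either dose left out. None of the 46 changed direction under these settings. The FPKM values come without counts, so differences in genes of a few FPKM were judged by the spread between libraries alone.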

Other observations

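Some genes outside the lists had a pattern at 10 µg/ml that was not shared by 100 µg/ml, and they missed the adjusted threshold between the doses. They were chosen after their values were seen. Ece1, which encodes an enzyme that activates endothelin, had 229.6, 111 and 319 FPKM in control cells, 863, 664 and 690.3 at 10 µg/ml and 176, 177 and 313 at 100 µg/ml, a log2 difference of -1.78 between the doses (limma adjusted p = 0.0749) and 1.86 for 10 µg/ml against control. The 3 libraries at 10 µg/ml lay above all others, and the control libraries spread widely. The uncharacterized 2510046G10Rik had 3.10, 2.88 and 1.80 FPKM in control cells, 0.810, 0.471 and 1.11 at 10 µg/ml and 5.02, 2.39 and 2.95 at 100 µg/ml, the opposite order (log2 difference between the doses 1.28, limma adjusted p = 0.0576).

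Called genes outside the lists, chosen for their known roles after their values were seen, included receptors and enzymes of myeloid cells. Tlr2, a receptor for bacterial lipoproteins, fell from 41.8, 42.8 and 44.1 FPKM at 10 µg/ml to 30.8, 33.0 and 35.6 FPKM at 100 µg/ml (log2 difference -0.36, limma adjusted p = 0.0326, 0.130 without replicate 3 at 10 µg/ml). Tnfrsf1b, the gene of a receptor for TNF, fell from 64.1, 61.0 and 63.3 FPKM to 47.6, 50.2 and 51.2 FPKM (log2 difference -0.33, limma adjusted p = 0.0401, 0.173 without replicate 1 at 10 µg/ml). Ncf1, which encodes a subunit of the phagocyte NADPH oxidase, fell from 74.0, 69.2 and 70.7 FPKM to 60.2, 59.1 and 57.8 FPKM (log2 difference -0.27, limma adjusted p = 0.0459, 0.182 without replicate 1 at 10 µg/ml). The matrix protease gene Mmp9 fell from 15, 14.1 and 15.6 FPKM to 10.9, 9.27 and 10.6 FPKM (log2 difference -0.50, limma adjusted p = 0.0249, 0.129 without replicate 1 at 10 µg/ml). Gpr183, a receptor for oxysterols that guides immune cells, fell from 4.04, 3.56 and 4.39 FPKM to 2.37, 2.48 and 1.98 FPKM (log2 difference -0.61, limma adjusted p = 0.0326, 0.146 without replicate 1 at 10 µg/ml). In each of these 5 genes the libraries of both doses were separate, as in every called gene, so this does not set them apart.

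Some metabolic enzymes outside the lists, also chosen after their values were seen, fell as well. None of them stayed past the threshold in every fit that lacked a library of either dose. Bcat1, the cytosolic branched-chain transaminase, had 63.6, 64.9 and 62.8 FPKM at 10 µg/ml and 48.5, 47.3 and 48.2 FPKM at 100 µg/ml (log2 difference -0.40, limma adjusted p = 0.0113). Dbt, a subunit of the branched-chain dehydrogenase, had 18.8, 18.0 and 18.4 FPKM and 12.9, 13.5 and 13.9 FPKM (-0.42, limma adjusted p = 0.0133), and Ivd, the isovaleryl-CoA dehydrogenase, had 71.6, 74.8 and 78.3 FPKM and 56.1, 57.2 and 55.0 FPKM (-0.41, limma adjusted p = 0.0332).

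Genes that rose outside the lists included Tank, a regulator of TRAF signaling, from 39.2, 40.6 and 41.9 FPKM at 10 µg/ml to 47.5, 48.7 and 49.3 FPKM at 100 µg/ml (log2 difference 0.25, limma adjusted p = 0.0475, 0.200 without replicate 1 at 10 µg/ml), and Brd2, a reader of acetylated histones, from 154, 158 and 164 FPKM to 215, 210.0 and 209 FPKM (log2 difference 0.41, limma adjusted p = 0.00841, 0.0617 without replicate 1 at 10 µg/ml). Zyx, which encodes the focal adhesion protein zyxin, rose from 9.62, 11.0 and 9.97 FPKM to 14.2, 12.8 and 13.8 FPKM (log2 difference 0.38, limma adjusted p = 0.0492, 0.214 without replicate 1 at 10 µg/ml). Each of these differences was small beside those of Pim2 or Herpud1.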
